A study of Mus musculus with 10 samples.

Results

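The 3 loci described here are the stretches of the mouse genome around Cebpa, Cebpb and Cebpd, the genes for the transcription factors C/EBPα, C/EBPβ and C/EBPδ. They were chosen by gene name, not by any measured value, though with earlier results of these data known. Each is a window of fixed position on build mm9 that reaches about 100 kb to each side of its gene: chromosome 7 from 35800000 to 36010000 for Cebpa, chromosome 2 from 167410000 to 167620000 for Cebpb, and chromosome 16 from 15785000 to 15990000 for Cebpd. The members were the DNase I hypersensitive (DHS) sites that overlapped these windows by at least 1 bp. There were 51 such sites, 17, 21 and 13 in the order above, of 129028 in the whole genome. They carried 425 of the 329076 footprints, 77, 267 and 81 in the same order.

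C/EBP proteins are basic leucine zipper factors, which bind DNA as pairs and recognise closely related sites. In cultured preadipocytes C/EBPβ and C/EBPδ are known as early factors, induced soon after the hormonal stimulus, and C/EBPα as a later factor that works together with PPARγ in the mature fat cell. DNase I cuts open chromatin, so a DHS site marks a stretch of open DNA. A footprint is a short stretch inside it with few cuts, read as DNA covered by a bound protein. The footprint does not name that protein.

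The nuclei came from 3T3-L1, a mouse preadipocyte cell line, harvested 4 h after the start of differentiation. The inducing medium held 10% FCS, 1 µg/mL insulin, 1 µM dexamethasone, which acts through the glucocorticoid receptor, and 0.5 mM 3-isobutyl-1-methylxantine, as the labels spell it, an inhibitor of cyclic AMP breakdown. The 2 DNase samples, a run labelled paired-end and a run with no such label, were sequenced from the same library, which the authors pooled with earlier reads of that library, so the lists carry no replicates and no error between cultures. No sample at 0 h was used, so nothing below says that a site opened or closed. The 8 RNA samples, from shCEBPb and Scr cells at D0 and 4 h, were not analysed here, and the labelled cell type was not checked against marker expression. Read depth is unknown, since neither list holds read counts. The values below are therefore set beside the whole genome as a description, with no test.

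The promoters are shown first because a DHS site lay over the gene part of each window, defined as the window less 100 kb at each end (10 kb for Cebpa and Cebpb, 5 kb for Cebpd). A site that overlapped the gene part was counted with it, with all its footprints, even where it reached beyond. All other sites were counted as flanks. The 250 bases before the annotated start of Cebpa and of Cebpb are given from RefSeq on build GRCm38.p6, plus strand, at chr7:35119043-35119292 and chr2:167688665-167688914. These coordinates belong to another build than the site lists and were not converted, so no footprint is placed on these letters. Capitals mark matches to the motifs searched, apart from the SP1/KLF box.

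Cebpa: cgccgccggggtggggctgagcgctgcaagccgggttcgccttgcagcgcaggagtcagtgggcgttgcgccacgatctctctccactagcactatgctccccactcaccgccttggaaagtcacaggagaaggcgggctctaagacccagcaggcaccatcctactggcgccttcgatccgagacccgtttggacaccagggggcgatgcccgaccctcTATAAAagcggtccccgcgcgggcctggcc

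Cebpb: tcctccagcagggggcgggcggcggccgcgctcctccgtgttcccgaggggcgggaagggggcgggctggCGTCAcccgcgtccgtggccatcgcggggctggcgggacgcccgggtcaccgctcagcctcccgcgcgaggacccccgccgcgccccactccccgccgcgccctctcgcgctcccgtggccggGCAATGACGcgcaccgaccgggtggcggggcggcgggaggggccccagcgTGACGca

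Both strands of the 300 bases around each start, the printed 250 and the 50 after them, were searched. The Cebpb promoter held 3 matches to TGACG, the core of the cyclic AMP response element (CRE), which CREB family factors bind. They began 180, 53 and 7 bases before the start, the first on the minus strand, and 20.8% of the 32851 promoters in the table held at least 1. It also held 1 match to GCAAT, a part of the C/EBP site, 57 bases before the start and overlapping the middle CRE core by 1 base (26.4% of promoters), and 5 matches to the SP1/KLF box GGGCGG (35.7%). The Cebpa promoter held none of these. Each had 1 match to TATAAA, the letters of the TATA box (13.6% of promoters). The match began 30 bases before the annotated start of Cebpa. At Cebpb it lay after the annotated start, at base 22 counted from it, and is a match to the letters only. Neither promoter held the full CRE TGACGTCA (1.79%), the C/EBP motif TTGCNNAA (10.8%, which includes the palindrome TTGCGCAA, 0.183%), the CCAAT box CCAAT (37.4%), the AP-1 motif TGANTCA (7.81%), the STAT motif TTCNNNGAA (8.30%) or the glucocorticoid receptor core ACANNNTGT (6.85%). GC content of the printed bases was 81.6% for Cebpb and 66.4% for Cebpa, against a mean of 53.2% over all promoters. Of the 7 family genes looked up, 4 were in the table. Cebpg, whose protein lacks the activating part of its relatives, had 2 CCAAT boxes and 1 SP1/KLF box, and Ddit3, a stress-induced partner of C/EBP proteins, had 1 CCAAT box and 1 AP-1 motif. Cebpd, Cebpe and Cebpz were not in it.

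The 3 loci differed mainly in how many footprints they held. Cebpb had 267 footprints in 21 sites, an average of 12.7 per site. Cebpd had 81 in 13 sites (6.23 per site) and Cebpa 77 in 17 sites (4.53 per site), against 2.55 per site over the genome. All 3 averages were thus above that of the genome. A footprint was present in 21 of 21 sites at Cebpb, a share of 100% (95% Wilson interval 84.5 to 100%), in 11 of 13 at Cebpd (84.6%, 57.8 to 95.7%) and in 13 of 17 at Cebpa (76.5%, 52.7 to 90.4%). The intervals cover counting error only and treat sites as independent. Together 45 of the 51 sites (88.2%) held a footprint, against 45.4% of all sites. The 6 without any were 4 at Cebpa and 2 at Cebpd.

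Sites with 5 or more footprints made up a larger share in each of the 3 windows than in the genome, whereas sites with 10 or more did so at Cebpb and Cebpd only. Of the 51 sites, 28 held 5 or more footprints (54.9%), against 19.3% of the genome, and 13 held 10 or more (25.5%), against 7.88%. At Cebpb 15 of 21 sites held 5 or more (71.4%) and 7 held 10 or more (33.3%). At Cebpd 5 of 13 sites passed each of these limits (38.5%). At Cebpa 8 of 17 sites held 5 or more (47.1%) and 1 held 10 or more (5.88%).

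Part of this went with width. The member sites were wider than sites elsewhere, with medians of 902 bp at Cebpd, 720 bp at Cebpb and 643 bp at Cebpa, against 532 bp over the genome. Of the 51, 15 (29.4%) were 1000 bp or wider, 5 in each window, against 11.6% of the genome's sites. To take width into account, each site was given the mean number of footprints of sites of like width (50 classes of equal number). By that measure Cebpb held 2.36 times the 113.2 footprints predicted, whereas Cebpa held 1.09 times the 70.5 predicted and Cebpd 0.856 times the 94.6 predicted. The Cebpb value includes a site of 7222 bp for which the prediction is low, as described below. Without that site the Cebpb ratio was 1.92. At Cebpb 20 of 21 sites lay above their prediction, at Cebpd 7 of 13 and at Cebpa 8 of 17, against 29.9% of the sites of the genome. The 29.9% covers sites of all widths and is not matched to the wider sites of these windows. A share above it is therefore not by itself an excess over width. Footprint density, which does not take width into account in this way, was 11.1 per kb of site sequence at Cebpb, 6.05 at Cebpd and 5.86 at Cebpa, against 4.08 over the genome. Values for the chromosomes as a whole were 4.28 per kb on chromosome 2, 3.76 on chromosome 16 and 4.32 on chromosome 7.

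**Figure D1:**
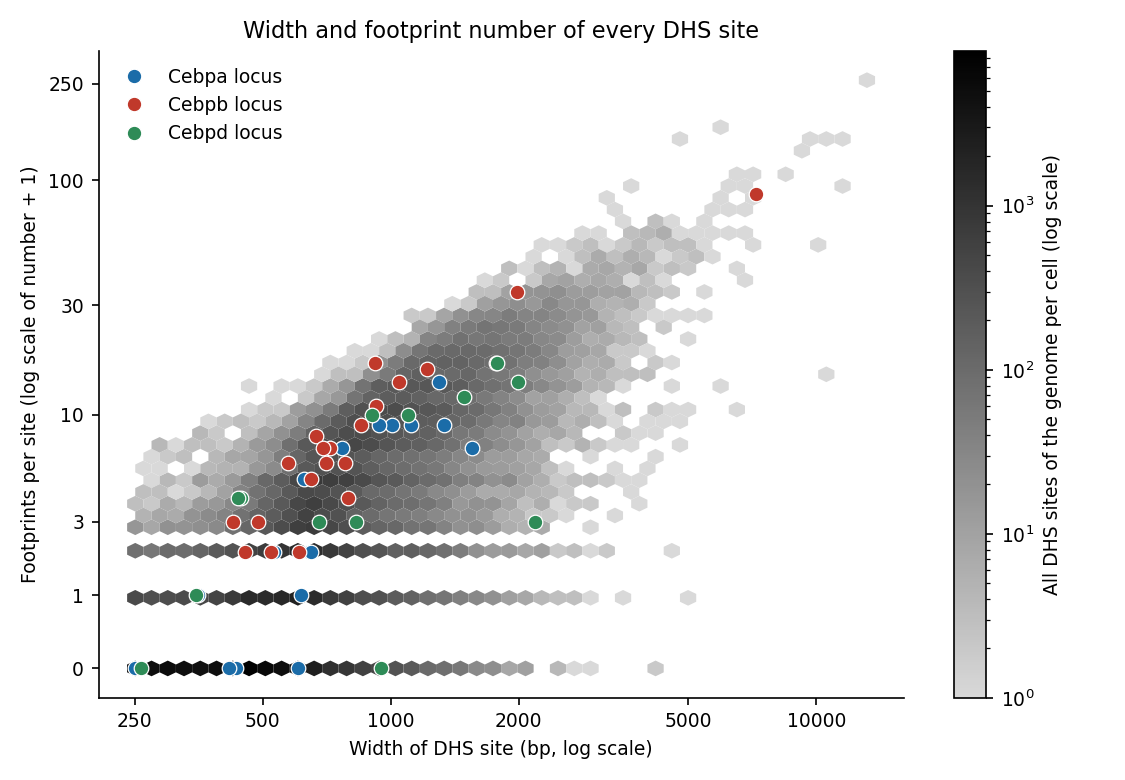
Footprints per site (log scale of number + 1) against the width of the site in bp (log scale). Grey cells count all 129028 DHS sites of the genome and coloured points are the 51 sites of the 3 loci. Of the 21 points of the Cebpb locus, 20 lie above the mean of sites of like width (not drawn), some of them only slightly. Its point farthest to the upper right is the site of 7222 bp with 88 footprints.

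Set beside windows of the same length laid end to end over the genome, Cebpb was far up in the range for footprints and less so for sites. Only 18 of 12302 windows (0.146%) held 267 footprints or more, where the median window held 11. For sites, 467 windows (3.80%) held 21 or more, against a median of 10. For the Cebpa window, 1151 windows (9.36%) held 77 footprints or more and 1492 (12.1%) held 17 sites or more. For the Cebpd window, which is 5 kb shorter and was set beside 12608 windows of its own length, 996 (7.90%) held 81 footprints or more and 3716 (29.5%) held 13 sites or more. The gene content of the windows was not taken into account. Without its broadest site, Cebpb still had 179 footprints, a number that 0.756% of windows reached.

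**Figure D2:**
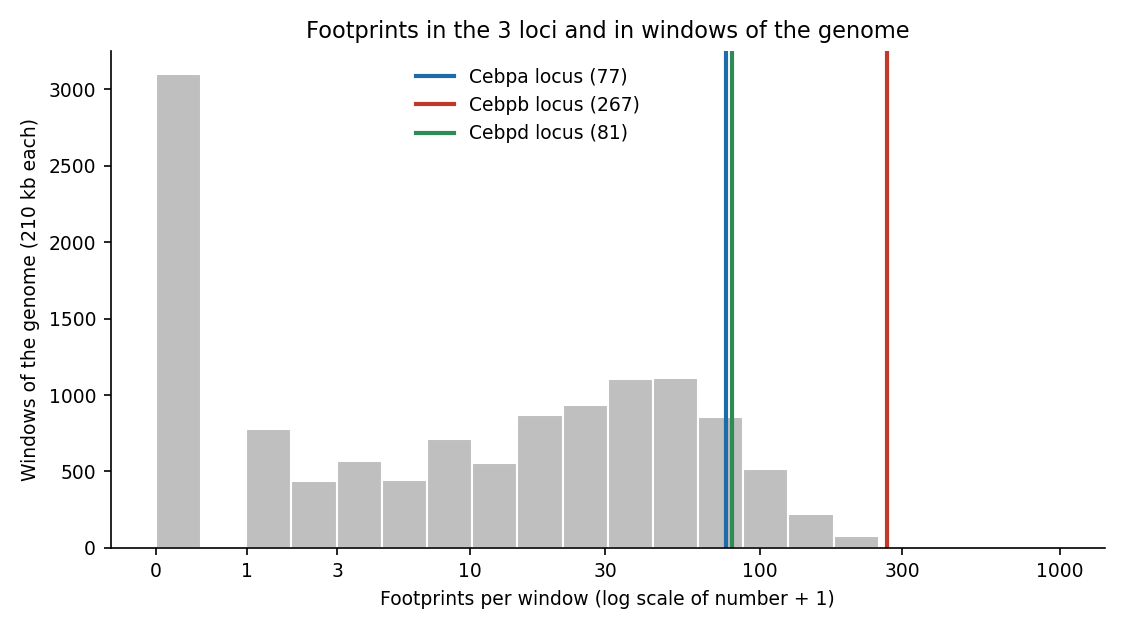
Number of windows of 210 kb (vertical axis) by footprints per window (horizontal axis, log scale of number + 1), with the 3 loci as lines. Cebpa (77) and Cebpd (81) lie on the right slope of the main hump and Cebpb (267) lies beyond nearly all windows, of which the few beyond it are too few to be seen at this scale.

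A broad open site overlapped the upper side of the gene part of the Cebpb window and reached beyond it. C/EBPβ drives the first wave of the adipogenic programme. A site of 7222 bp, from 167514137 to 167521358, held 88 footprints, 33.0% of those in the window. It was the widest site on chromosome 2, and 10 sites of the genome, itself included, were as wide or wider. By footprint number it ranked 15 in the genome and was 1 of 2 sites on chromosome 2 with 88 or more. Sites this broad are rich in footprints elsewhere too. Among the 41 sites of 5000 bp or more, the median was 59 footprints and the range 1 to 259, and 13 of the 41 held 88 or more. Its density of 12.2 per kb compares with a median of 10.2 per kb in those 41. The prediction of 20.1 footprints for this site, the mean of a class that starts at 1794 bp and has a median of 2143 bp, is therefore low for it. A second site of the gene part, 668 bp from 167510499 to 167511166, held 8 footprints, where its width predicted 2.85.

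Footprints ran along most of this broad site in an uneven way. In steps of 1 kb from its lower end the number of footprints was 16, 16, 9, 9, 15, 18 and 5, and the last 222 bp held 0. Coverage by footprints was highest in the sixth kb, at 38.3%, and lowest of the whole kb steps in the seventh, at 10.3%. The longest stretch between neighbouring footprints was 282 bp, from 167517590 to 167517871. The scores in this site were ordinary. The deposited score of a footprint is negative, and more negative values were read as stronger, with no scale or log base stated in the labels or headers. The median was -4.36 among these 88 footprints, against -4.38 over all finite scores of the genome. The first kb had the strongest median, -5.10, and the strongest footprint of the site, -7.95, from 167514725 to 167514747. Only 3 of the 88 (3.41%) passed a score of -7.14, the limit of the strongest 10%, which 10.1% of the genome's footprints passed with those at -Inf included.

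The strong footprints of the Cebpb window lay in the flanks. In the window as a whole 47 of 267 footprints (17.6%) passed the limit of -7.14, against 10.1% over the genome, and 43 of the 47 were outside the gene part. The median was -5.03 over the 171 footprints of the flank sites and -4.40 over the 96 in sites that overlapped the gene part. Some of those 96 lay above its upper end. Of the 47, 33 sat in the 3 sites that had the most of them. The first of these, 1985 bp from 167601919 to 167603903, lay 87.9 kb above the window centre and held 34 footprints, a number that 273 sites of the genome reached, and 15 of its footprints passed the limit. Its strongest, from 167603129 to 167603151, had a score of -18.8, the strongest of all 425 footprints, and 0.476% of the genome's footprints were as strong.

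The next was a compact site of 920 bp from 167459568 to 167460487, 55.0 kb below the centre. It held 17 footprints, where its width predicted 5.65, or 18.5 per kb, the highest density of the 51 sites. Between 167459919 and 167460178, 7 of 10 footprints had scores below -10, at -14.9, -12.1, -16.2, -15.2, -16.6, -18.5 and -14.0, and the other 3, lying among them, had -6.70, -5.89 and -9.61. Those 7 lay among the strongest 1.55% of the genome's footprints. The last was a site of 1219 bp from 167419439 to 167420657, 94.95 kb below the centre, with 16 footprints, 9 of them past the limit and the strongest at -14.6. Footprints at -10 or below numbered 22 at Cebpb, 3 at Cebpd and 0 at Cebpa, where 3.09% of the genome's footprints reached that value. Another site of 1765 bp from 167599668 to 167601432, 0.486 kb from the site with 34 footprints, held 17, with a strongest score of -7.78.

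In the RefSeq order of GRCm38.p6, the protein-coding genes next to Cebpb are Tmem189 and Ube2v1 on the lower side and Ptpn1 on the upper side, and the long noncoding RNA A530013C23Rik follows Cebpb directly. Distances were not transferred to mm9, so no flank site is assigned to a gene.

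**Figure D3:**
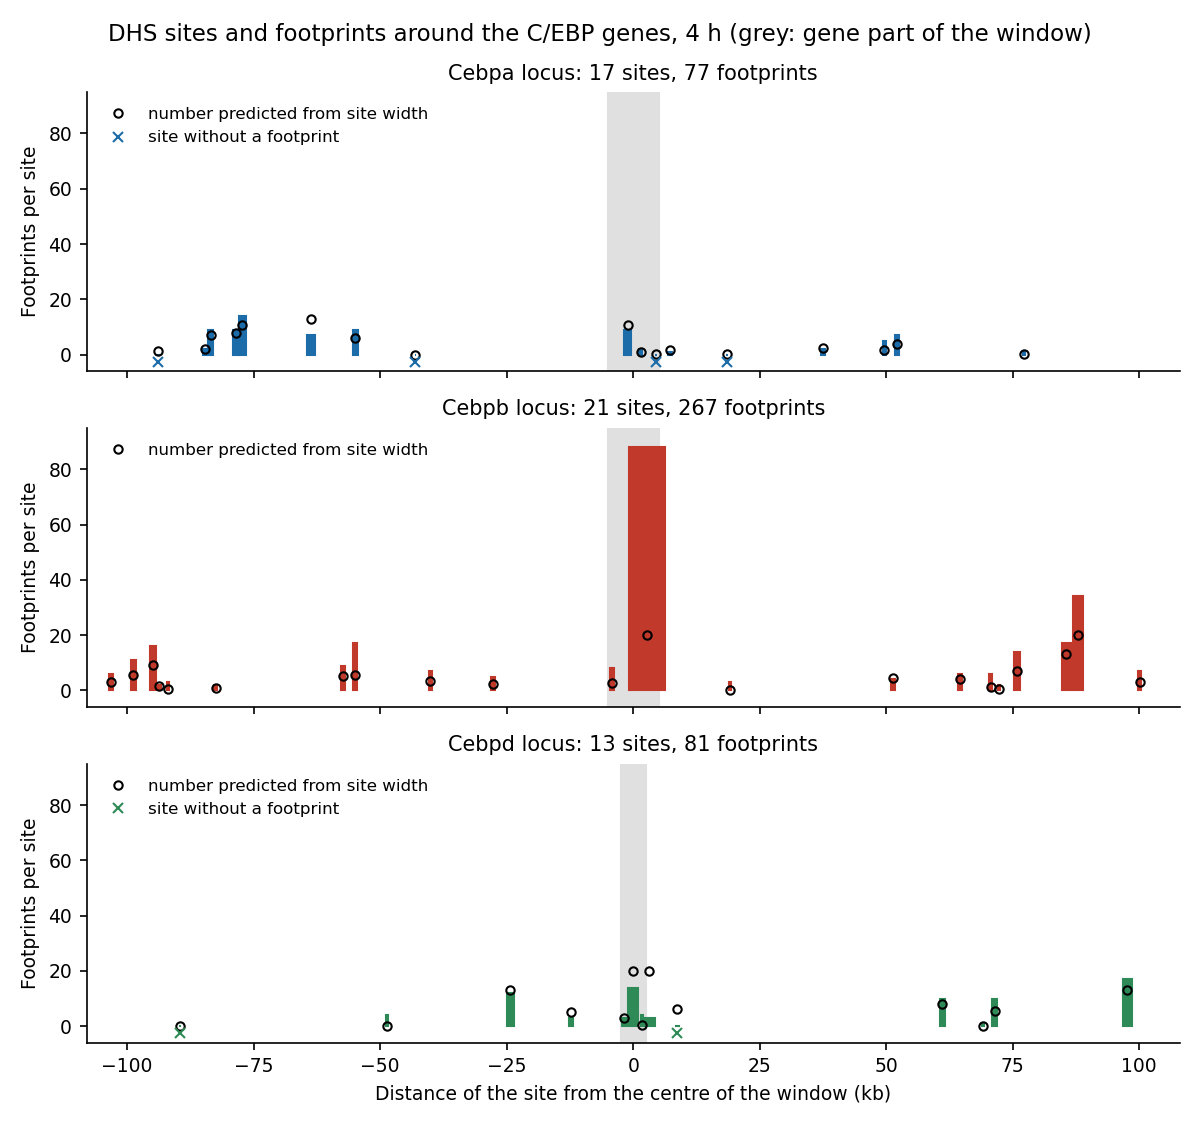
Footprints per DHS site (vertical axis) against the distance of the site from the window centre in kb (horizontal axis), for Cebpa, Cebpb and Cebpd. Bars are drawn at the width of the site, open circles give the number predicted from width, crosses mark sites with no footprint, and grey is the gene part. The Cebpb site with 88 footprints overlaps the gene part, whereas at Cebpa the site with the most footprints, 14, lies 77.2 kb below the centre.

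The gene part of Cebpa was far less open. Its 3 sites covered 2301 bp and held 11 footprints, 14.3% of those in the window, close to the 11.8 predicted from width. The site at 35903271 to 35904604 (1334 bp) held 9 of the 11. Its footprints were packed into the 382 bp from 35903932 to 35904313, and 4 of them passed the limit of the strongest 10%, with scores of -9.02, -7.63, -9.90 and -7.18. The footprint at -9.90, from 35904178 to 35904202, and the one at -9.02, from 35904046 to 35904075, were the strongest of the whole Cebpa window. A site of 533 bp from 35906211 to 35906743 held 2 weak footprints (-3.65 and -3.81), and a site of 434 bp from 35909331 to 35909764 held 0.

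Most footprints of the Cebpa window were far from the gene part. Of the 77, 50 (64.9%) lay in 8 sites on the lower side, 16 in 6 sites on the upper side. The site with the most, 14, ran from 35827141 to 35828437 (1297 bp), 77.2 kb below the centre, and its neighbour only 0.053 kb away held 9. Further sites with 9 footprints were at 35821002 to 35822008 and 35849636 to 35850574. The widest site, 1553 bp from 35840490 to 35842042, held 7 footprints where 13.0 were predicted. A stretch of 41.2 kb, from 35862062 to 35903270, held no site and reached into the lower side of the gene part. A distance that long or longer made up 12.9% of the distances between neighbouring sites in the genome. Of the 66 footprints outside the gene part 1 passed the limit of the strongest 10%, at -8.41. In the whole window 5 of 77 did (6.49%), and the median score was -4.35. On GRCm38.p6 the family member Cebpg and the predicted gene Gm45095 precede Cebpa, and Slc7a10, an amino acid transporter gene used as a marker of white fat cells, is the next protein-coding gene after it.

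At Cebpd the sites that overlapped the gene part held few footprints for their width. C/EBPδ is the partner of C/EBPβ in the early phase. The gene part was overlapped by 4 sites of 5293 bp together, with 24 footprints, 0.554 times the 43.3 predicted. These values count whole sites. The shortfall lay in the sites of 2184 bp and 1992 bp, which held 0.149 and 0.697 times their predictions. Most of the site of 2184 bp lies beyond the gene part, which ends at 15890000. The shortfall is therefore not one of the gene part alone. Those of 680 bp and 437 bp held 1.05 and 14.5 times theirs, the latter against a prediction of only 0.276. A site of 1992 bp from 15886477 to 15888468 held 14 footprints and had none in its last 828 bp. Of the 14, 1 passed the limit of the strongest 10%, at -7.17 from 15887513 to 15887541. Among the 2580 widest sites of the genome, those of 1794 bp or more, 35.4% held 14 or fewer. The widest site of the window, 2184 bp from 15889531 to 15891714, held 3, with scores of -3.88, -3.73 and -3.87, and 5.62% of those widest sites held 3 or fewer. Between them a site of 437 bp from 15888967 to 15889403 held 4. A site of 949 bp, 8.73 kb above the centre, held 0.

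The strongest footprint of Cebpd lay in a small group at the lower edge of the gene part. A site of 680 bp from 15885365 to 15886044, 1.80 kb below the centre, held only 3 footprints, and all 3 passed the limit of the strongest 10%. Their scores were -13.6 from 15885674 to 15885703, -7.90 from 15885714 to 15885723 and -8.64 from 15885725 to 15885749, so that they spanned 76 bp. The first was the strongest of the window, and 1.06% of the genome's footprints were as strong. The second strongest, -13.0, lay 24.1 kb below the centre from 15863424 to 15863452, in a site of 1489 bp from 15862489 to 15863977 with 12 footprints. The most footprints, 17, were near the upper edge of the window, in a site of 1781 bp from 15984270 to 15986050. In all 12 of 81 footprints (14.8%) passed the limit, and the median score was -4.48. A stretch of 51.4 kb from 15896703 to 15948066 held no site. Of the distances between neighbouring sites in the genome, 8.74% were that long or longer. On GRCm38.p6 Mzt2 and Prkdc, a DNA repair kinase gene, precede Cebpd, and Spidr follows it.

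**Figure D4:**
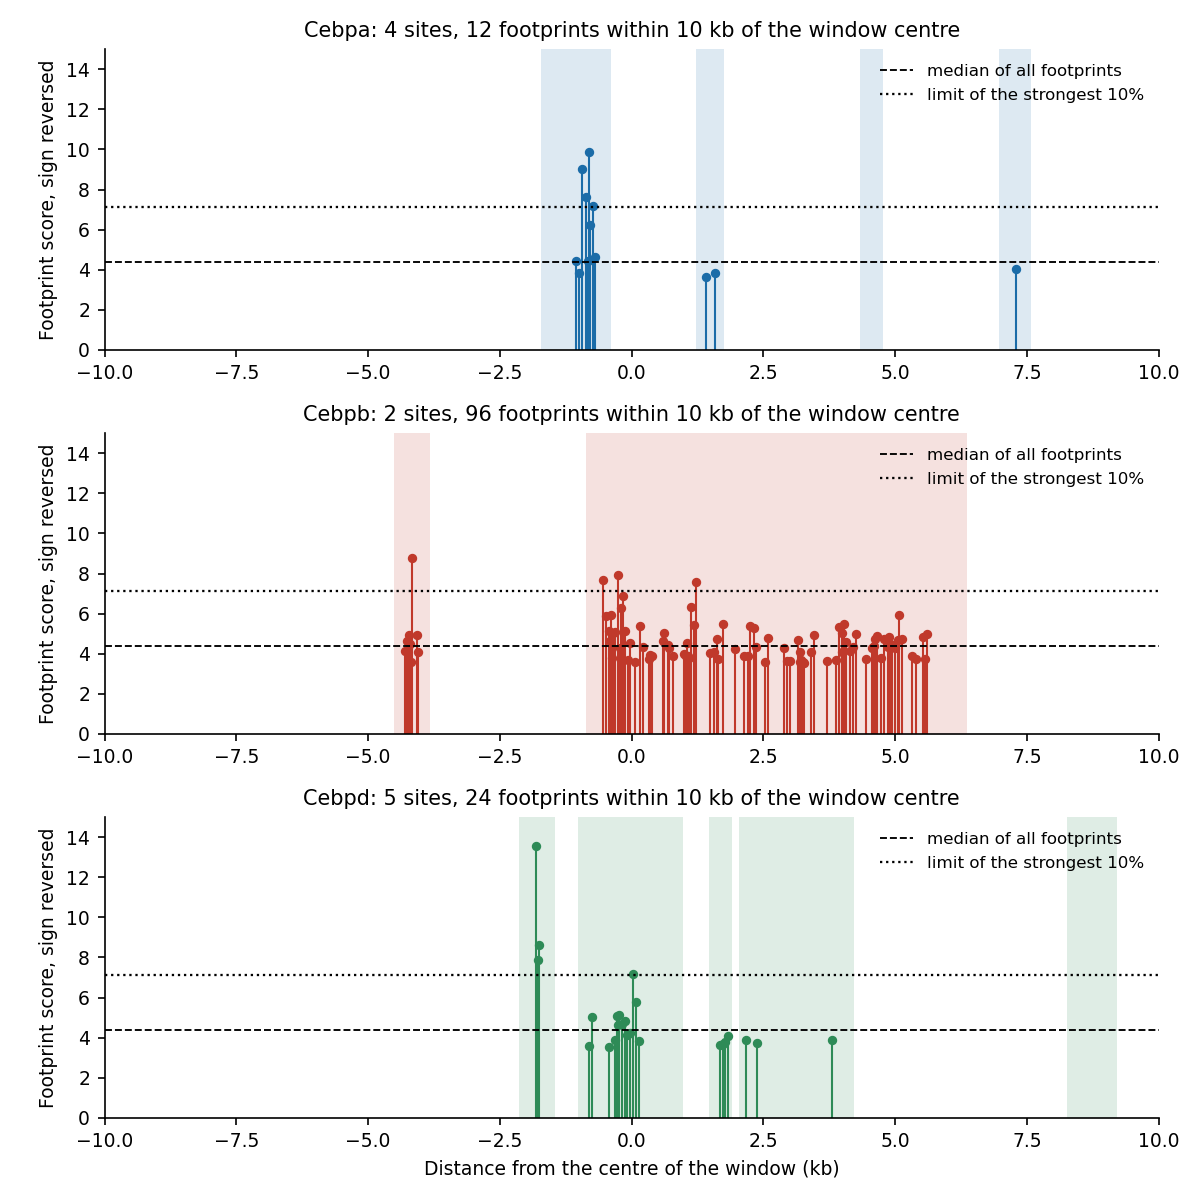
Footprint score with its sign reversed (vertical axis, upward is stronger) against the distance from the window centre in kb (horizontal axis), within 10 kb of the centre; each pin is a footprint and shaded bands are DHS sites. Cebpb shows 96 footprints in 2 sites, mostly near the genome median of -4.38, whereas Cebpa shows 12 and Cebpd 24, with short groups of strong footprints below the centre.

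The share of footprints within 10 kb of the window centre was 36.0% at Cebpb, 29.6% at Cebpd and 15.6% at Cebpa. Beyond 50 kb lay 58.4% of the footprints at Cebpb, 46.9% at Cebpd and 75.3% at Cebpa. Median distances between neighbouring sites were 6.83 kb at Cebpb, 8.55 kb at Cebpd and 8.11 kb at Cebpa, against 10.3 kb over the genome. Sites covered 11.4% of the Cebpb window, 6.53% of the Cebpd window and 6.26% of the Cebpa window.

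**Figure D5:**
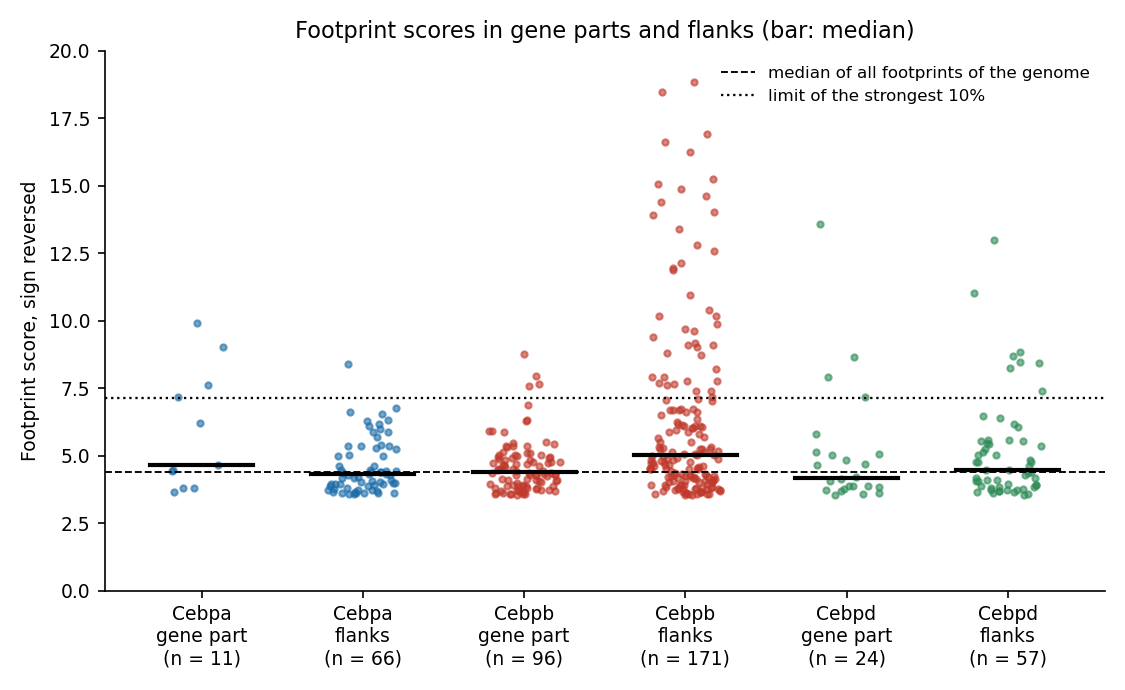
Footprint scores with the sign reversed (vertical axis, upward is stronger) for gene parts and flanks of the 3 loci; each point is a footprint, spread sideways only for display, and bars are medians. Scores beyond -10 are frequent in the flanks of Cebpb (22 footprints), whereas its gene part, with a median of -4.40, reaches only -8.75.

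In width the footprints of the loci were like those elsewhere. Their median width was 22 bp at Cebpb and 21 bp at Cebpa and Cebpd, against 21 bp over the genome. Footprints at the upper limit of 30 bp made up 8.99% at Cebpb, 11.1% at Cebpd and 9.09% at Cebpa, against 11.6%. Gaps under 10 bp between neighbouring footprints of a site made up 26.4% of 246 gaps at Cebpb, 14.3% of 70 at Cebpd and 25% of 64 at Cebpa, against 24.4%. Footprints covered 22.5% of the site sequence at Cebpb, 12.5% at Cebpd and 12.0% at Cebpa, against 8.19%.

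The window edges cut through no site. The sites just inside held 0 and 1 footprints at Cebpa, 6 and 7 at Cebpb and 0 and 17 at Cebpd. Those just outside held 4 and 18 at Cebpa, 9 and 2 at Cebpb and 7 and 1 at Cebpd, each pair in order of position. The site with 18 footprints, 1770 bp from 36018998 to 36020767, began 8.998 kb beyond the Cebpa window and would have been its richest.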

How the data were processed

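Open chromatin was measured by DNase I digestion of nuclei, with short fragments taken from a sucrose gradient and sequenced, per the labels. The authors pooled the 2 runs with earlier reads of the same library before sites and footprints were called. Build mm9 and HOMER are named in the submitters' processing notes, with no step, order or version, and no footprint caller is named there. The deposited site list holds positions only. The deposited footprint list holds positions and, per the file header, a p-value column made by the authors' footprint calls on the pooled reads. Its values are below 0 throughout and so cannot be p-values. These deposited values were read as a score with no stated scale. No footprint of the 3 loci was at -Inf. A limit of 30 bp on width and unknown read depth restrict which footprints could be called.

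Positions are 1-based, with BED starts raised by 1. Footprints were counted in the site they overlapped by at least 1 bp. Predictions from width were means within 50 classes of equal number. Windows of the same length were laid end to end along each chromosome as far as its sites reach. Named sites were those over the gene part, the 3 with the most footprints (with ties), the widest, and the 2 strongest footprints of each locus; the site of 1765 bp at Cebpb is such a tie, and the site of 1219 bp, the stretches with no site, the other sites and footprints named, the width limit of 1000 bp and the score limit of -10 were chosen after their values were seen. The members, rules and limits were chosen with earlier results of these data known. The planned search of footprints for motifs was limited to promoters, since no mm9 sequence was used here. Functions were tested on simulated data. The ratio to the number predicted from width was tested there on stretches of many more sites than a locus holds. Shorter stretches left too wide a counting error, so that test does not show how precise the ratio is for 1 locus. Python 3.11.15, numpy 2.4.6, pandas 2.3.3, scipy 1.17.1 and matplotlib 3.10.9 were used.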

Additional observations from a re-analysis of the deposited data

How the results depend on the processing

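No paired analysis was possible because 1 DNase library was pooled before calling, and the RNA samples that share experiment numbers were not analysed here. Of 126 values under alternatives, 94 stayed within the range allowed and 32 did not. That range was 1.5 times for numbers of sites and footprints and, for all other values, the 95% counting interval of the value, which for shares of windows is narrow. The 94 include values that could not change, so they do not measure stability. Among these were 24 with sites fully inside the window and 3 with -Inf counted as strongest. Ranks by sites were also fixed where only footprints were dropped or merged. Keeping the stronger 50% of footprints lowers their number and density by design. The ratio to the number predicted from width ran from 1.01 to 1.20 at Cebpa, from 1.92 to 3.14 at Cebpb and from 0.635 to 0.911 at Cebpd. With the stronger 50% of footprints Cebpa kept 38 footprints (2.89 per kb, a number reached by 10.4% of windows), Cebpb 159 (6.62 per kb, in 76.2% of sites, 2.68 times the prediction) and Cebpd 41 (3.06 per kb, reached by 8.62% of windows). With 50 kb each side Cebpa had 10 sites and 34 footprints, 35.3% of them central, and Cebpb had 7 sites and 123 footprints, a ratio of 3.14, a median score of -4.47 and 78.0% central. Cebpd then had 8 sites and 43 footprints, 4.78 per kb, a ratio of 0.635 and 55.8% central. Among the wider 50% of sites 92.3% at Cebpa held a footprint. Against windows of their own chromosome, 10.1% reached the footprints of Cebpa, 4.23% the sites of Cebpb, 34.1% the sites and 6.65% the footprints of Cebpd. Leaving out the broad Cebpb site, an alternative chosen after seeing the data, gave a ratio of 1.92, a median score of -4.94, and 4.99% of windows by sites and 0.756% by footprints. The setting of 200 width classes was also added then. No site crossed a window edge and no member footprint was at -Inf, so those 2 settings left every value as it was and say nothing on stability.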
